A study of Sus scrofa with 599 samples.

Results

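The adipogenic transcription factors described here are 10 genes, PPARG, RXRA, CEBPA, CEBPB, CEBPD, KLF5, KLF15, EBF1, EBF2 and ZNF423, which were taken by symbol from 21280 protein-coding genes (PCGs). They were followed through 4 adipose tissues of adult female Bama pigs, 2 years old, in RNA-seq libraries, in Hi-C compartment scores and in H3K27ac regions. All 10 were measured, and all 10 passed the filter on low expression in each of the 30 comparisons made. One tissue was subcutaneous, the upper layer of backfat (ULB), and the others were visceral, RAD being retroperitoneal fat, MAD mesenteric fat and GOM the greater omentum.

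The study compared 3 diet groups. NC pigs kept a normal diet, WG (weight gain) pigs received 22 weeks of a high-fat diet, and WL (weight loss) pigs, after the same diet, were held at 10% of normal intake for 12 weeks. The RNA-seq data held 9, 45 and 10 GOM libraries in NC, WG and WL, 12, 36 and 10 from MAD, 12, 39 and 10 from RAD, and 5, 38 and 10 from ULB, 236 in all. The WL pigs differed from the WG pigs in age at sampling and time on diet as well as in intake, and no group kept the high-fat diet for the added weeks, so these cannot be told apart.

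White adipocytes arise from fibroblast-like precursors through a cascade of transcription factors. C/EBPβ and C/EBPδ, the products of CEBPB and CEBPD, are induced first, KLF5 acts with them, and together they switch on PPARG and CEBPA, whose products maintain each other and activate the genes of lipid storage. ZNF423 and the EBF factors act early, in the commitment of precursors, KLF15 acts late, and RXRA is the nuclear receptor with which PPARγ binds DNA as a pair.

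The upstream sequences of both annotated PPARG starts and of CEBPD are shown because the H3K27ac regions described further on lie over them and because the 2 PPARG starts differ in composition. They are the 250 bases before the start in the Sscrofa11.1 RefSeq annotation, written 5′ to 3′ on the gene's strand, which is the plus strand for all 3. Capitals mark GGGCGG on either strand (a GC box) or TTNNGCAA on either strand (a C/EBP-type motif).
PPARG first start, chr13:68301316-68301565: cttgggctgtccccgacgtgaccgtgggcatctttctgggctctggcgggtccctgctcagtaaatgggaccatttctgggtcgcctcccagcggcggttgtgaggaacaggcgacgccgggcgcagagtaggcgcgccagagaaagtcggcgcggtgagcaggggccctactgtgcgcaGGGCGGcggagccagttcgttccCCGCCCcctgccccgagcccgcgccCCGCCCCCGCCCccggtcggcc
PPARG internal start, chr13:68363581-68363830: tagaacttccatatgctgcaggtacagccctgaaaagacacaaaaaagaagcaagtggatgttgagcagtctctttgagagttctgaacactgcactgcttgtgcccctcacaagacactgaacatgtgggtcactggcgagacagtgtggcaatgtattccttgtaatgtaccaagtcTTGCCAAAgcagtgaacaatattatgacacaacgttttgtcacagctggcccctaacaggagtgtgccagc
CEBPD, chr4:79872613-79872862: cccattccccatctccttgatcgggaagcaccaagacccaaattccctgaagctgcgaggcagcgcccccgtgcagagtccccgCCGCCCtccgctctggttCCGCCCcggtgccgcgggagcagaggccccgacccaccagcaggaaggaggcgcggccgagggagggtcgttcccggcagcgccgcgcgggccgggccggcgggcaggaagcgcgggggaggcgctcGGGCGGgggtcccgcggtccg
The window of the first PPARG start was 72.4% G or C and held 4 GC boxes and no TTNNGCAA match, and the window of the internal start was 46.8% G or C with no GC box and 1 TTNNGCAA match. The CEBPD window was 76.0% G or C with 3 GC boxes. Over the 13519 promoters placed by symbol, the median was 60% G or C, 53.1% of promoters held a GC box and 7.79% held TTNNGCAA on either strand. On either strand, none of the 3 windows held CCAAT (31.8% of promoters did), AGGTCA (11.3%) or CCCNNGGG (19.3%), and where letters of 2 motifs overlapped each match was counted. A match describes letters only.

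The libraries held between 3337126 and 22939407 estimated counts on PCGs (median 16791614). The summed level of 6 adipocyte marker genes lay between 1290 and 16600 TPM, a unit of expression corrected for gene length and library size, in every library. The share of PCG TPM on the 13 mitochondrially encoded mRNAs split the libraries, with none between 7.65% and 11.2%: 30 of 38 NC libraries, 70 of 158 WG libraries and 0 of 40 WL libraries were at 10% or more. This share is a property of whole libraries and was used, after the data had been seen, to repeat each diet comparison among libraries of 1 kind. In GOM all 9 NC libraries were at 10% or more and all 10 WL libraries were below it, so that there the change from NC to WL and the mitochondrial share cannot be told apart. The adipocyte sum had a median of 3660 TPM in NC GOM and of 6250 to 9010 TPM in the other NC depots, and of 5090 TPM in WL GOM and 5830 to 8790 TPM in the other WL depots. The summed level of 5 macrophage markers was 458 TPM in NC GOM and 234 to 357 TPM in the other NC depots. The adipocyte sum in NC and WL and the macrophage sum in NC thus moved with the contrasts of GOM against other depots given for PPARG, CEBPA, CEBPB and EBF2, and their part in them was not tested. Most of the adipocyte markers are also in the list of genes activated by PPARγ and C/EBP factors given further on. The adipocyte sum is therefore not a measure of cell content independent of these factors. In bulk tissue, fewer cells of a type and less RNA per cell cannot be told apart either. In NC MAD the summed level of 4 smooth muscle markers had a median of 551 TPM and a highest value of 10200 TPM. The sum of 3 skeletal muscle markers there had a median of 4.33 TPM and a highest value of 118 TPM. The part of muscle RNA in the comparisons with NC MAD was not tested.

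A differentially expressed gene (DEG) had an adjusted p below 0.05 in edgeR's quasi-likelihood test (Benjamini-Hochberg over all PCGs tested) and a fold change of at least 1.5. Expression is given as TPM, and fold changes are the log2 fold changes of that test with their standard error (SE). The paper states that the 4 tissues were collected from each pig. Apart from fits with the replicate number as a block, the depot comparisons took the libraries as independent. Between depots the 10 factors gave 31 DEG calls in 180 tests, 15 higher and 16 lower in the depot named second, where 11.3% of all PCG tests were called, 4.91% higher and 6.36% lower. From NC to WG they gave 6 calls in 40 tests (14.3% of all PCG tests called), from WG to WL 6 in 40 (9.32%), and from NC to WL 19 in 40 (27.8%). Of the 19, 15 were lower and 4 higher in WL, against 16.2% and 11.6% of all PCG tests. The 3 diet comparisons share their groups, so their counts are not separate evidence. Among libraries with at least 90% of TPM on PCGs (high PCG share), 26 of the 62 calls remained, a choice that left 2 of 9 NC and 2 of 10 WL libraries in GOM and 3 of 10 WL libraries in MAD. With all 12 groups in 1 fit, 5 of the 62 calls were lost: CEBPA from GOM to ULB in WL, EBF1 from NC to WG in RAD, and from NC to WL CEBPB in ULB, KLF5 in RAD and ZNF423 in GOM.

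**Figure D1:**
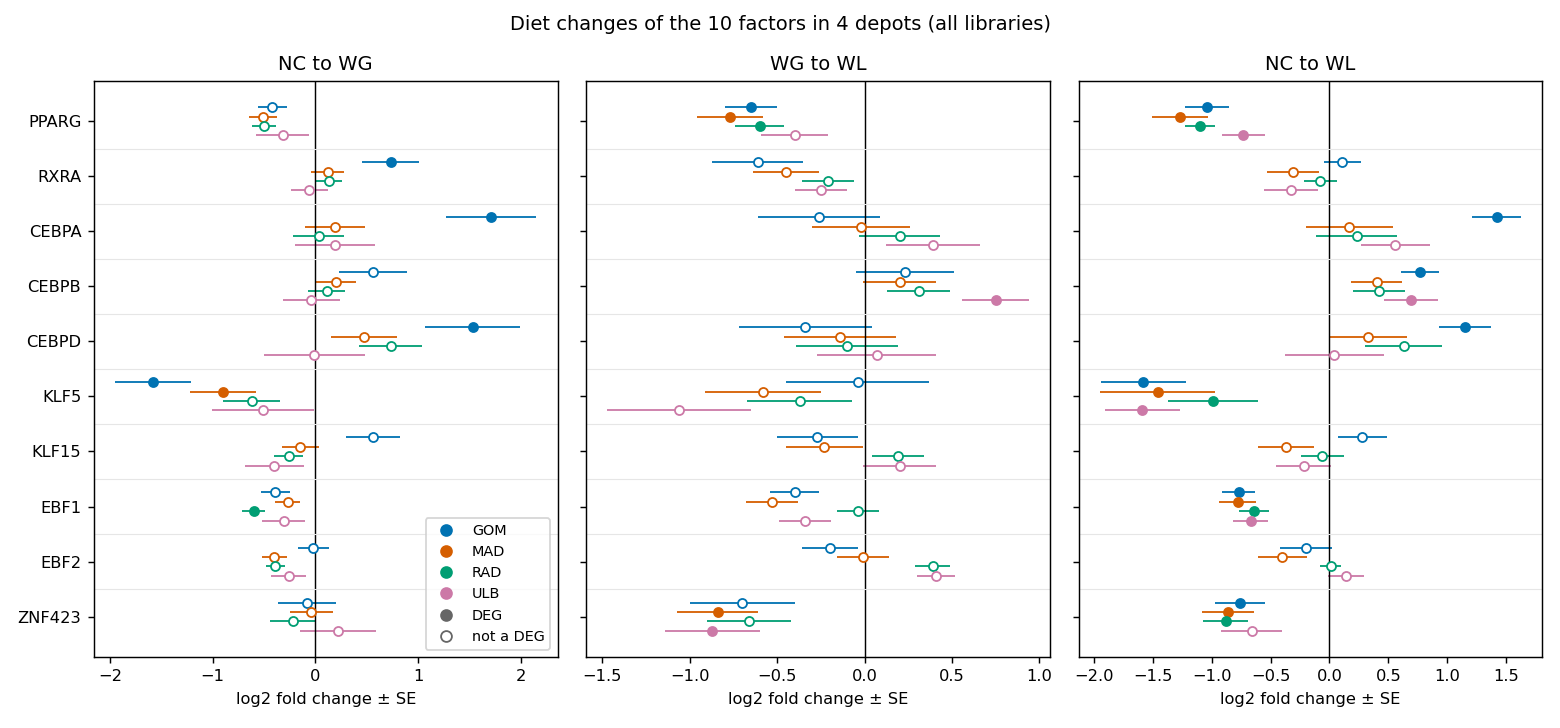
Log2 fold change with its SE (horizontal axis) of each of the 10 factors in each depot, in 3 panels for NC to WG, WG to WL and NC to WL; filled points are DEGs. From NC to WL the PPARG, KLF5 and EBF1 points are filled and below 0 in all 4 depots, and the only DEGs above 0 are CEBPA and CEBPD in GOM and CEBPB in GOM and ULB.

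PPARG (ENSSSCG00000011579, chr13:68301566-68433951, plus strand) encodes PPARγ, the master regulator of fat cell formation and the receptor for thiazolidinediones. It was higher in RAD than in GOM under every diet and lower after weight loss in all 4 depots than in NC. In NC its lowest, median and highest levels were 75.0, 168 and 216 TPM in GOM, 111, 247 and 308 TPM in MAD, and 154, 246 and 511 TPM in RAD. The 5 NC ULB libraries held 122, 209.7, 225, 279 and 289 TPM. After weight loss the levels were 47.9, 89.6 and 139 TPM in GOM, 38.4, 126 and 176 TPM in MAD, 124, 152 and 214 TPM in RAD, and 121, 159 and 216 TPM in ULB. The WL medians lay below the NC medians, and the groups overlapped in each depot.

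From NC to WL the PPARG log2 fold change was -0.73 ± 0.18 in ULB (adjusted p = 0.00869), -1.10 ± 0.13 in RAD (adjusted p = 3.15e-06), -1.27 ± 0.24 in MAD (adjusted p = 0.000258) and -1.04 ± 0.19 in GOM (adjusted p = 8.42e-05). The PPARG values from NC to WG of -0.42 in GOM, -0.51 in MAD and -0.50 in RAD passed the adjusted p (0.015, 0.01 and 0.000941) but not the fold threshold, and ULB, at -0.32, passed neither. From WG to WL PPARG fell by 0.65 (GOM), by 0.77 (MAD) and by 0.60 (RAD) on the log2 scale (adjusted p = 0.00344, 0.00171 and 0.00197). Among libraries below 10% mitochondrial share the WG to WL values were -0.50, -0.69 and -0.57, of which MAD stayed past the fold threshold, and the NC to WL values were -1.42 in MAD and -1.25 in RAD, both called, with 3 NC libraries each, while in ULB, with 2, the value was -0.38 (adjusted p = 0.291). PPARG was thus lower in WL than in NC within libraries of 1 kind in MAD and RAD, and the lower level in ULB was not called there. In MAD the summed level of 4 T cell markers had a median of 17.4 TPM (highest 33.3) in NC and 49.5 TPM (highest 616) in WL, that of 4 B cell markers had a highest value of 30.1 TPM in NC and 547 TPM in WL, and the adipocyte median went from 9010 to 5830 TPM. Their part in the PPARG difference in MAD was not tested.

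Between GOM and RAD the PPARG log2 fold change was 0.74 ± 0.16 (WL), 0.73 ± 0.09 (WG) and 0.80 ± 0.16 (NC), with adjusted p = 0.00152, 1.57e-11 and 0.000856. Among WG libraries of at least 10% mitochondrial share it was 0.57 and under the fold threshold, and with high PCG share only it was 0.80 in WL and 0.77 in NC (adjusted p = 0.14 and 0.164), neither called. In WL, ULB exceeded GOM as well, by 0.71 ± 0.15 (adjusted p = 0.00119). From MAD to RAD in WL the difference of 0.53 (adjusted p = 0.119) was not called, but with the replicate number as a block, in one of the comparisons where numbers paired the libraries, it was 0.64 (adjusted p = 0.0169) and was called. Over the 12 groups the mean was highest in NC RAD and lowest in WL GOM, 2.89-fold apart, and each of the 11 neighbouring steps in that order was within the spread of its groups.

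RXRA (ENSSSCG00000038220, chr1:273698842-273797622, plus strand), the partner receptor of PPARγ, was higher in ULB than in GOM in NC and WL. In NC it held 35.1, 40.5 and 55 TPM (lowest, median, highest) in GOM, while the 5 ULB libraries held 65.9, 67.6, 84.1, 120 and 138 TPM, so the groups did not overlap, and the log2 fold change from GOM to ULB was 1.06 ± 0.16 (adjusted p = 0.000146). The same contrast was 0.63 ± 0.20 in WL (adjusted p = 0.0255), and 0.41 (adjusted p = 0.395) among libraries of high PCG share, with 2 in GOM. In GOM, RXRA rose from NC to WG by 0.73 ± 0.28 (adjusted p = 0.0356). One WG GOM library, replicate 35, held 524 TPM, where the next held 136 TPM, and without it the change was 0.50 (adjusted p = 0.00466) and under the fold threshold, as it was by DESeq2 (0.45). Among libraries of at least 10% mitochondrial share, which do not include replicate 35, it was 0.64 (adjusted p = 0.00193) and remained a DEG. With the mitochondrial share as a term over all libraries, the change was 0.65 (adjusted p = 0.146) and was not called. With high PCG share only it was 0.77 (adjusted p = 0.125). With RLE size factors it was 0.71 (adjusted p = 0.0508), and neither of these was called. Replicate 35, the library with the fewest counts, was also the highest of 45 for CEBPA (1535 TPM), CEBPB (1316 TPM), CEBPD (2397 TPM) and KLF15 (221 TPM), and the lowest for PPARG (77.2 TPM) and EBF2 (4.83 TPM).

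**Figure D2:**
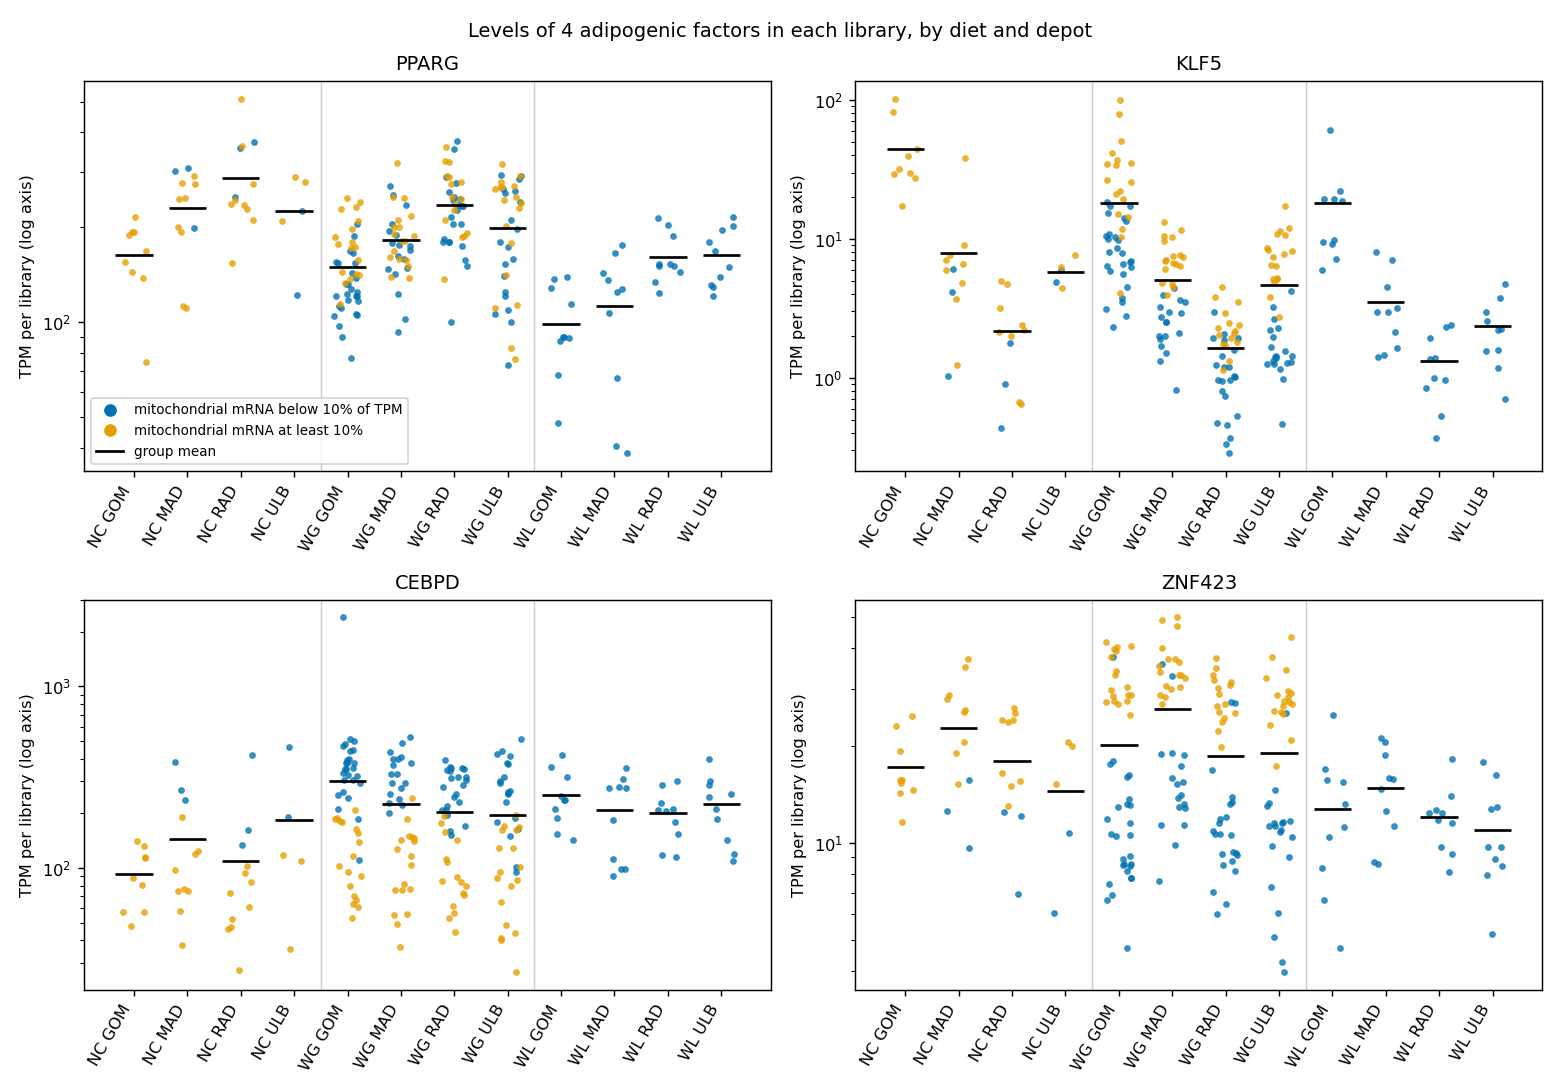
TPM on a log axis (vertical) of PPARG, KLF5, CEBPD and ZNF423 in each of the 236 libraries, by diet and depot (horizontal); blue points are libraries below 10% mitochondrial share, orange points those at 10% or more, and a line marks each group's mean. KLF5 falls from GOM to RAD within every diet, the CEBPD median is higher in the blue than in the orange WG libraries, and most blue WG libraries lie below the orange ones for ZNF423, with some overlap.

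The C/EBP genes encode leucine-zipper factors. CEBPA (ENSSSCG00000002866, chr6:43083200-43085884, minus strand) drives the late step of differentiation and insulin sensitivity. In NC its lowest, median and highest levels were 25.3, 51.9 and 81.8 TPM in GOM, 28.8, 101.7 and 451 TPM in MAD, and 80.6, 109 and 519 TPM in RAD, and the 5 ULB libraries held 96.5, 134, 135, 145 and 379 TPM. GOM lay below ULB with no overlap and overlapped the others. CEBPA exceeded its GOM level by a log2 fold change of 1.67 ± 0.29 in ULB, 1.78 ± 0.37 in RAD and 1.47 ± 0.37 in MAD (adjusted p = 0.000504, 0.000871 and 0.00676), and by 1.14, 1.03 and 0.87 among NC libraries of at least 10% mitochondrial share, all called. With high PCG share only, which left 2 NC GOM libraries, the RAD and MAD values were 2.7 and 2.05 (adjusted p = 0.155 and 0.249), neither called. In WL the levels were 103, 160.2 and 275 TPM in GOM and 183, 279 and 499.6 TPM in ULB, and the log2 fold change between them was 0.81 ± 0.19 (adjusted p = 0.00257), and 0.44 (adjusted p = 0.391) among libraries of high PCG share.

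In GOM, CEBPA reached 39.6, 187 and 1535 TPM in WG, a rise from NC of 1.71 ± 0.44 (adjusted p = 0.00218), and 103, 160.2 and 275 TPM in WL, a rise from NC of 1.42 ± 0.21 (adjusted p = 7.13e-06). The NC and WL groups did not overlap. CEBPD (ENSSSCG00000032367, chr4:79872863-79874481, plus strand), an early factor that glucocorticoids induce, held 47.7, 88.5 and 140.0 TPM in NC GOM, 53.0, 251 and 2397 TPM in WG GOM, and 143, 236 and 421 TPM in WL GOM. It rose from NC to WG by 1.53 ± 0.46 (adjusted p = 0.00783) and from NC to WL by 1.15 ± 0.22 (adjusted p = 0.000149), again with NC and WL apart. Among libraries of high PCG share, 2 in each group, the change from NC to WL was 0.25 (adjusted p = 0.46). Among libraries of at least 10% mitochondrial share the NC to WG values in GOM were 0.33 for CEBPA (adjusted p = 0.279) and 0.02 for CEBPD (adjusted p = 0.964), so that the CEBPA value was smaller and neither was called within libraries of 1 kind.

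Within WG the levels of both genes followed that split. CEBPD held 94.6, 314 and 2397 TPM (lowest, median, highest) in the 88 WG libraries below 10% and 26.7, 95.0 and 242 TPM in the 70 at or above it. CEBPA held 113, 266 and 1535 TPM below and 39.6, 101 and 217 TPM above. These sets were formed from the libraries themselves, so the values are a description without a test. Among libraries below 10%, CEBPD fell from WG to WL by 0.87 in GOM and by 0.73 in MAD on the log2 scale (adjusted p = 0.0467 and 0.00933), changes not called over all libraries, where the values were -0.34 and -0.14. The WG GOM set below 10% included replicate 35, at 2397 TPM, where the next library of WG GOM held 514 TPM. The fit within this set was not repeated without replicate 35.

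CEBPB (ENSSSCG00000034207, chr17:51722633-51723673, plus strand), the other early factor, was higher after weight loss in GOM and ULB. GOM held 60.9, 95.6 and 136 TPM in NC and 112, 216 and 277 TPM in WL, with a log2 fold change of 0.77 ± 0.16 (adjusted p = 0.00041). ULB held 90.3, 100.5, 173, 177 and 179.9 TPM in NC, 62.0, 143 and 413 TPM in WG, and 174, 291 and 339.6 TPM in WL, and CEBPB rose from WG to WL by 0.75 ± 0.19 (adjusted p = 0.00449) and from NC to WL by 0.69 ± 0.23 (adjusted p = 0.0428). The last value was 0.59 without NC ULB replicate 9 and 0.55 without replicate 12, and was then no longer called. Among libraries below 10% mitochondrial share, the ULB rise was 0.39 from WG to WL (adjusted p = 0.089) and 0.40 from NC to WL (adjusted p = 0.366), neither called. With high PCG share only, the rise from NC to WL was 0.50 in GOM and 0.49 in ULB (adjusted p = 0.224 and 0.265). The ULB rise from WG to WL was then 0.55 (adjusted p = 0.105), and none of these was called. In NC, CEBPB was also higher in RAD than in GOM, by 0.86 ± 0.20 (adjusted p = 0.00252). With high PCG share only this difference was 1.13 (adjusted p = 0.187) and was not called.

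KLF5 (ENSSSCG00000035101, chr11:45370009-45386673, plus strand), a Krüppel-like factor of early adipogenesis that many epithelia also express, gave 19 of the 62 calls and had the widest range, 34.1-fold between the means of NC GOM and WL RAD. Its mean level was highest in GOM and lowest in RAD under every diet, with MAD and ULB between them and not called apart. In NC it held 17.2, 31.8 and 102 TPM in GOM, 1.04, 6.02 and 37.9 TPM in MAD and 0.436, 2.07 and 4.96 TPM in RAD, and the 5 ULB libraries held 4.40, 4.85, 5.96, 6.23 and 7.61 TPM. In WL it held 5.99, 14.2 and 60.3 TPM in GOM, 1.40, 2.98 and 8.02 TPM in MAD, 0.366, 1.17 and 2.40 TPM in RAD and 0.705, 2.23 and 4.77 TPM in ULB. GOM did not overlap RAD or ULB in either diet.

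From GOM to RAD KLF5 was 20.0-fold lower in NC (-4.32 ± 0.37, adjusted p = 5.8e-09), 10.2-fold lower in WG (-3.35 ± 0.26, adjusted p = 5.2e-20) and 13.3-fold lower in WL (-3.74 ± 0.42, adjusted p = 7e-07). GOM to MAD ranged from -1.77 to -2.43 and GOM to ULB from -1.89 to -2.95, all called. With high PCG share only, GOM to MAD was -2.79 in NC and -1.01 in WL (adjusted p = 0.0976 and 0.814), neither called. RAD was below MAD under every diet as well, by -1.88, -1.60 and -1.41, and ULB exceeded RAD by 1.49 ± 0.24 in WG. In NC the MAD to RAD value was -1.77 below 10% mitochondrial share and -1.88 at or above it (adjusted p = 0.611 and 0.0503), neither called. With high PCG share only it was -1.93 in NC and -1.42 in WL (adjusted p = 0.339 and 0.535), neither called. The contrast from GOM to RAD was also large within libraries of 1 kind, at -4.07 in NC libraries of at least 10% mitochondrial share. WT1, the 1 measured gene of 5 mesothelial markers, was highest in GOM as KLF5 was, with RAD near MAD and ULB lowest: its medians in NC, WG and WL were 71.8, 40.2 and 48.2 TPM in GOM, 8.46, 8.85 and 6.77 TPM in MAD, 8.80, 7.21 and 5.24 TPM in RAD, and 0.627, 0.154 and 0.0144 TPM in ULB. Its part in the KLF5 result was not tested.

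KLF5 was lower in WG than in NC in GOM, by -1.58 ± 0.37 (adjusted p = 0.000748), and in MAD, by -0.90 ± 0.32 (adjusted p = 0.0438). In WL it was lower than in NC in GOM (-1.58 ± 0.36), MAD (-1.46 ± 0.49), RAD (-0.99 ± 0.38) and ULB (-1.59 ± 0.32), with adjusted p = 0.000983, 0.0179, 0.0424 and 0.00313. These changes varied with the mitochondrial split. WG libraries below 10% held 0.286, 2.09 and 18.4 TPM and those at 10% or more 1.13, 7.21 and 99.8 TPM over all depots. Within libraries of at least 10% the NC to WG values were -0.80 in GOM and -0.58 in MAD, neither called, and within those below 10% the NC to WL values were -0.21 in MAD and 0.16 in RAD, neither called, and -1.50 in ULB (adjusted p = 0.0388), called against 2 NC libraries. In GOM, KLF5 rose from WG to WL by 0.94 among libraries below 10% (adjusted p = 0.0184), from 2.31, 7.91 and 18.4 TPM to 5.99, 14.2 and 60.3 TPM, where the value over all libraries was -0.04.

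KLF15 (ENSSSCG00000036742, chr7:53877813-53890558, minus strand), a late factor linked to glucocorticoid signalling and to glucose uptake, stayed within a 1.73-fold range of group means. It held 12.7, 25.4 and 38.4 TPM in NC GOM, the lowest group, and 21.9, 38.6 and 221 TPM in WG GOM, the highest. It was a DEG in 0 of 30 comparisons by edgeR and in 0 by DESeq2, with 3 at an adjusted p below 0.05 and 6 at an unadjusted p below 0.05 in edgeR. The largest of the 3 was a log2 fold change of 0.53 from GOM to MAD in NC (adjusted p = 0.0479), below the fold threshold.

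EBF1, EBF2 and ZNF423 act in precursor commitment, EBF1 in fat cells and B cells, EBF2 as a marker of brown and beige precursors, and ZNF423 as a zinc-finger factor that sensitizes precursors to BMP signals. EBF1 (ENSSSCG00000017046, chr16:64357999-64753188, plus strand) was lower in WL than in NC in all 4 depots. Its lowest, median and highest levels went from 87.9, 142 and 175 TPM to 57.6, 93.1 and 151 TPM in GOM, from 101, 174 and 226 TPM to 50.4, 114 and 174 TPM in MAD, and from 101, 158 and 269 TPM to 89.3, 136 and 160.3 TPM in RAD. In ULB the 5 NC libraries held 144, 144, 167, 172 and 176 TPM, and the WL libraries 87.1, 131 and 166 TPM.

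For EBF1 the log2 fold changes were -0.77, -0.78, -0.64 and -0.67 in GOM, MAD, RAD and ULB, with SE from 0.13 to 0.16 and adjusted p = 0.00011, 0.000686, 0.000476 and 0.00569. In RAD it was already lower in WG, by -0.60 ± 0.11 (adjusted p = 5.09e-05), a call lost without the TPM filter (-0.54). The NC to WL call in RAD was lost without that filter as well (-0.58). With high PCG share only, the NC to WL values were -0.76, -0.69, -0.53 and -0.57 in GOM, MAD, RAD and ULB (adjusted p = 0.0819, 0.103, 0.0546 and 0.0388). None was called, ULB being under the fold threshold. Within libraries below 10% mitochondrial share the NC to WL values of EBF1 were -0.67 in MAD, -0.38 in RAD and -0.51 in ULB, of which none was called, and the WG to WL values lay between -0.24 and 0.17. EBF1 was a DEG between no depots by edgeR, with 4 of 18 at an adjusted p below 0.05, 6 at an unadjusted p below 0.05, and 0 by DESeq2.

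EBF2 (ENSSSCG00000009655, chr14:9816992-10027574, minus strand) was a DEG between depots and not between diets. It had 7 calls between depots in edgeR, and 0 of 12 between diets in edgeR and in DESeq2. Of the 12, 4 had an adjusted and 4 an unadjusted p below 0.05 in edgeR, without passing the fold threshold. RAD exceeded ULB under every diet. In NC, RAD held 24.4, 29.6 and 42 TPM and the 5 ULB libraries 12.9, 18, 19.3, 20.4 and 23.8 TPM. In WG they held 14.6, 29.1 and 43.3 TPM and 8.21, 17.5 and 27.6 TPM, and in WL 31.8, 37.0 and 48.8 TPM and 17.6, 25.3 and 31.7 TPM. The NC and WL groups did not overlap. The log2 fold changes from RAD to ULB were -0.80 ± 0.16, -0.66 ± 0.07 and -0.66 ± 0.08 (adjusted p = 0.00456, 7.34e-12 and 1.62e-05). In NC the value was -1.0 among libraries below 10% mitochondrial share (adjusted p = 0.0876) and -0.66 among the others (adjusted p = 0.0663), neither called, and in WG it was -0.58 among libraries of at least 10%, under the fold threshold. RAD also exceeded GOM by 0.84 ± 0.16 in NC and 1.04 ± 0.16 in WL (adjusted p = 0.000435 and 7.21e-05), and MAD exceeded GOM by 0.80 ± 0.20 in NC (adjusted p = 0.0066). Among NC libraries of high PCG share the RAD and MAD values were 0.43 and 0.37 (adjusted p = 0.239 and 0.509), neither called. In WG, ULB was below MAD by -0.62 ± 0.08 (adjusted p = 1.27e-09). With the replicate number as a block, where numbers paired the libraries, that value was -0.57 (adjusted p = 5e-09) and fell under the fold threshold.

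ZNF423 (ENSSSCG00000002838, chr6:34929286-35299695, plus strand) fell from WG to WL in MAD by 0.84 and in ULB by 0.87 on the log2 scale (adjusted p = 0.0057 and 0.0197), and was lower in WL than in NC in GOM, MAD and RAD by -0.76, -0.86 and -0.88 (adjusted p = 0.00387, 0.00293 and 0.000976). In MAD the levels were 9.65, 22.9 and 37.2 TPM in NC, 7.59, 28.5 and 49.9 TPM in WG, and 8.62, 15.2 and 21.1 TPM in WL. The WG range covered both other groups. It held 7.59, 14.6 and 35.9 TPM in the 18 WG MAD libraries below 10% mitochondrial share and 27, 33.5 and 49.9 TPM in the 18 at or above it. In WG GOM these sets held 4.73, 10.5 and 37.8 TPM and 24.8, 30.1 and 41.8 TPM. Among libraries below 10% the WG to WL values were 0.01, -0.17, -0.04 and -0.12 in GOM, MAD, RAD and ULB, and the NC to WL values were 0.11, -0.03 and 0.14 in MAD, RAD and ULB, none of them called.

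Summed over the factors, the comparisons within libraries of 1 kind gave fewer calls. Between NC and WG, 2 of 30 tests were called below 10% (2.04% of all PCG tests) and 1 of 40 at or above it (10.5%). From WG to WL 4 of 40 were called below 10% (10.2%), and from NC to WL 3 of 30 (10.4%). Calls between depots were 21 of 150 below 10% (8.94%) and 19 of 120 at or above it (9.43%). Within the set below 10% only 2 to 3 NC libraries stood on one side, which limits its NC comparisons.

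Whether ULB responded unlike the visceral depots was tested as an interaction in edgeR, 60 tests in all. Without regard to the replicate number, none passed an adjusted p of 0.05, where 2.21% of all PCG tests did, and 7 had an unadjusted p below 0.05. Among these the NC to WG change in ULB minus that in GOM was -1.52 ± 0.51 for CEBPA (adjusted p = 0.0618), -1.56 ± 0.58 for CEBPD (adjusted p = 0.0878), -0.99 ± 0.34 for KLF15 (adjusted p = 0.0696) and -0.80 ± 0.30 for RXRA (adjusted p = 0.0932). Leaving out 1 NC ULB library at a time let 1 test pass without replicate 5 and 3 without replicate 9, and none without the others. That fit takes the depots as independent, although same-numbered WG libraries of 2 depots deviated together, with a median correlation of 0.587 to 0.664. Of 45 WG replicate numbers with libraries of at least 2 depots, 42 lay on 1 side of the mitochondrial split in every depot. The part of that split in the correlations and in the block was not tested. With the replicate number within each diet as a block, a fit added after the data had been seen, 9 of the 60 tests passed, where 11.9% of all PCG tests did. For CEBPD the NC to WG change in ULB minus that in GOM was -1.59 ± 0.32, minus RAD -1.35 ± 0.31 and minus MAD -1.01 ± 0.32 (adjusted p = 5.5e-05, 0.00219 and 0.0392). Against GOM alone, CEBPA (-1.42 ± 0.29, adjusted p = 9.4e-05), KLF15 (-0.89 ± 0.23, adjusted p = 0.00179) and ZNF423 (0.66 ± 0.26, adjusted p = 0.0367) passed. From WG to WL, EBF2 passed against GOM (0.62 ± 0.16, adjusted p = 0.00794) and MAD (0.44 ± 0.16, adjusted p = 0.0465), and CEBPB against MAD (0.57 ± 0.20, adjusted p = 0.0372). Whether the changes in ULB differ from those in the visceral depots thus depended on the block, and for ULB with GOM the numbers did not pair the WG libraries by the rule used, with 37 of 38 pairs correlated above 0.1. All NC GOM libraries were at 10% mitochondrial share or more, and the part of that share in these differences was not tested.

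Genes that PPARγ and C/EBP factors activate in adipocytes were followed as a list of 22, of which 18 were measured and tested. In GOM, 11 rose and 0 fell from NC to WG, where 12.2% and 14.5% of all PCGs did, with a median log2 fold change of 0.78 (0.00 over all PCGs), against 3 higher and 0 lower within libraries of at least 10% mitochondrial share (3.57% and 9.21% of all PCGs). FABP4, the fatty acid carrier of adipocytes, rose there by 1.05, and was 0.41 and not called within that set. SCD, the stearoyl-CoA desaturase, rose by 2.69 and by 2.24 within the set, both called. From WG to WL, 5 were lower and 0 higher in GOM (2.71% and 2.55% of all PCGs), 7 lower and 1 higher in MAD (9.17% and 8.26%), 3 lower and 0 higher in RAD (4.13% and 2.24%), and 5 lower and 5 higher in ULB (4.90% and 3.22%), with medians of -0.37, -0.58, -0.08 and 0.23. In the order GOM, MAD, RAD and ULB, SCD fell by 3.31, 3.25, 2.79 and 2.03 on the log2 scale, and LPL, which releases fatty acids from circulating lipoproteins, fell by 1.17, 1.24, 0.91 and 0.75. Within libraries below 10% these values were -3.55, -3.54, -2.93 and -2.32 for SCD and -1.13, -1.13, -0.80 and -0.70 for LPL, all called. ADIPOQ, which encodes adiponectin, was lower in WG than in NC in MAD (-0.76) and RAD (-0.92).

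The A-B index scores each 20-kb bin of the Hi-C maps, positive in the open A compartment and negative in the closed B compartment, and was deposited for 240 samples. The bins holding the starts of the 10 factors were positive in every sample, except that of EBF2 in WG GOM, which was positive in 42 of 46. RXRA had the highest index, at percentiles 77.8 to 96.1 of all PCG start bins by group. EBF2, ZNF423 and KLF5 were among the lowest, at 21.6 to 32.3, 24 to 41 and 27.8 to 44. In WL MAD and WL RAD, ZNF423 stood at 40.2 and 41, above KLF5 at 30.7 and 31.7. Differences were called at an adjusted p below 0.05 (limma, over 113298 bins) and an index difference over 0.75. Between depots 23 of 180 tests were called, 20 higher and 3 lower, where 11.4% of all bin tests were, 6.18% higher and 5.24% lower. No test of 40 from NC to WG was called (4.43% of bin tests), with 7 at an adjusted and 18 at an unadjusted p below 0.05, from WG to WL 4 (4.33%), and from NC to WL 10 (12.7%), of which 9 were higher and 1 lower, against 11.6% and 1.12% of bin tests.

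At the PPARG start the index followed the order of its expression between GOM and RAD. In NC it ran over 2.28, 2.66 and 3.74 (lowest, median, highest) in GOM and 2.97, 3.83 and 4.8 in RAD, in WG over 1.39, 3.27 and 4.72 and 2.89, 4.50 and 5.61, and in WL over 1.32, 3.38 and 4.35 and 3.79, 4.78 and 5.15. The groups overlapped. RAD exceeded GOM by 1.56 ± 0.28 in WL, 1.08 ± 0.14 in WG and 1.09 ± 0.24 in NC (adjusted p = 0.000228, 4.17e-10 and 0.00121), and ULB exceeded GOM by 1.53 ± 0.31 in WL and 1.09 ± 0.13 in WG (adjusted p = 0.000568 and 2.54e-11). While PPARG expression was lower in WL than in NC, its index in ULB was higher, by 1.05 ± 0.31 (adjusted p = 0.0283), from 2.85, 3.31, 3.66, 3.91 and 4.29 in the 5 NC samples to 3.46, 4.78 and 5.54 in WL. That call was lost without NC ULB replicate 5, 9 or 12 (adjusted p = 0.0941, 0.0579 and 0.0729) and with quantile normalization (0.73, adjusted p = 0.0713).

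**Figure D3:**
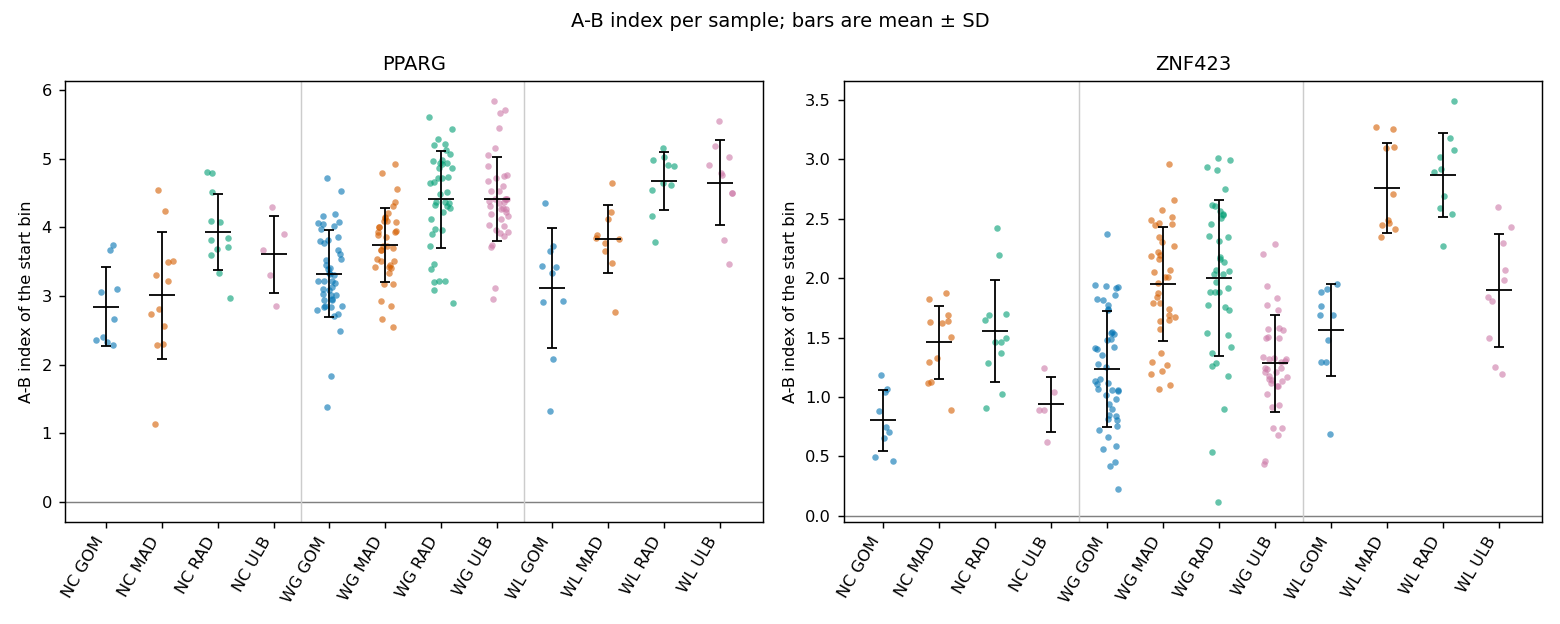
A-B index (vertical axis, no unit) of the start bins of PPARG and ZNF423 in each sample, by diet and depot (horizontal), with the group's mean and SD. PPARG is lowest in GOM under every diet, and ZNF423 rises from NC to WL in all 4 depots.

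ZNF423 gave the most compartment calls, 12. From NC to WL its index rose by 0.96 ± 0.24 in ULB, 1.31 ± 0.17 in RAD, 1.3 ± 0.16 in MAD and 0.76 ± 0.17 in GOM (adjusted p = 0.0122, 2.89e-06, 6.55e-06 and 0.00582). In MAD it went from 0.892, 1.56 and 1.88 to 2.35, 2.60 and 3.27, with no overlap, and in RAD from 0.908, 1.48 and 2.43 to 2.28, 2.91 and 3.49, with overlap. All start bins moved in this comparison, by a median of 0.32, 0.37, 0.41 and 0.24 in the 4 depots, and quantile normalization between samples brought these medians to -0.03, 0.06, 0.07 and -0.04. The ZNF423 rise was then 0.96 in MAD and 0.96 in RAD, still called, and 0.40 in GOM and 0.53 in ULB, not called. CEBPA rose from NC to WL in GOM, MAD and ULB by 1.13, 1.04 and 0.93, CEBPD rose in RAD by 0.82, and KLF15 fell in RAD by 0.83 (adjusted p from 8.27e-05 to 0.0287). With quantile normalization the CEBPA values were 0.71, 0.67 and 0.55 and the CEBPD value 0.45, none called, while KLF15 remained called, although its mean over all bins of the gene differed by -0.23 and was not called. EBF2 exceeded its GOM index in MAD by 0.91 in NC and in MAD, RAD and ULB by 0.78, 0.76 and 0.76 in WG, of which MAD (0.72) and RAD (0.68) fell under the threshold with quantile normalization. The KLF5 bin was lower in RAD than in GOM in NC, by -0.80 ± 0.30 (adjusted p = 0.0456), a call lost over the mean of the gene's bins (-0.73).

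H3K27ac marks active promoters and enhancers. The deposited region lists stitch nearby peaks, rank the regions by signal over input and name the top ones super-enhancers, in 18 lists for a depot in NC, WL or 1 of several weight-gain groups, each pooling 1 to 11 samples. There is 1 list per group, so these are descriptions without a test. A region lay within 10 kb of the factor in 166 of 180 pairs of factor and list, and a super-enhancer in 116 of 180. Over 13049 placed PCGs the shares by list were 72.3% to 92.9% and 6.57% to 31.2%. The window was the whole gene with 10 kb at each end, so it was wider for long genes such as EBF1 (395190 bases) and ZNF423 (370410 bases). The PCGs were not matched to the factors for length or expression, and the part of length in these counts was not tested.

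RXRA had a super-enhancer in 18 of 18 lists, with its best region within the top 0.87% of each list, and held rank 2 in one WG GOM list (chr1:273647000-274016399). EBF1 had one in 17 lists, CEBPB in all 15 lists with a region near it, CEBPD in 14 and KLF15 in 13. PPARG had one in 12 lists, in 4 of 4 from ULB, 3 of 4 from RAD, 3 of 5 from MAD and 2 of 5 from GOM, and its region in WL RAD, of rank 84, spanned chr13:68270400-68487399 and so covered both starts printed above. A region lay over the first PPARG start in 14 lists and over the internal start in 14, and over the CEBPD start in 17. The paper states that regions were ranked with a setting to exclude promoters. A region over a start can thus come from stitched peaks beside it, and a list without a region need not mean an unmarked promoter.

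KLF5, without a super-enhancer in any list, had a region in 8 of 18 lists, which were all 5 GOM lists and the NC lists of MAD, RAD and ULB. Its region stood at 16.1% to 21.8% of the ranked list in GOM and at 52.8% to 54.1% in the 3 others. In NC GOM it covered chr11:45364600-45383999 (rank 3555) and in NC RAD chr11:45369200-45371399 (rank 11143). EBF2 was the converse, at 29.7% to 50.2% of the list in GOM and 3.91% to 24.4% elsewhere. ZNF423 had a super-enhancer in 0 of 4 NC lists and in 13 of 14 WG and WL lists, among them chr6:34910400-35192599 in a WG RAD list (rank 64). The NC lists had regions near 88.0% to 92.9% of PCGs and the others near 72.3% to 83.3%, and the part of that difference in the ZNF423 count was not tested.

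**Figure D4:**
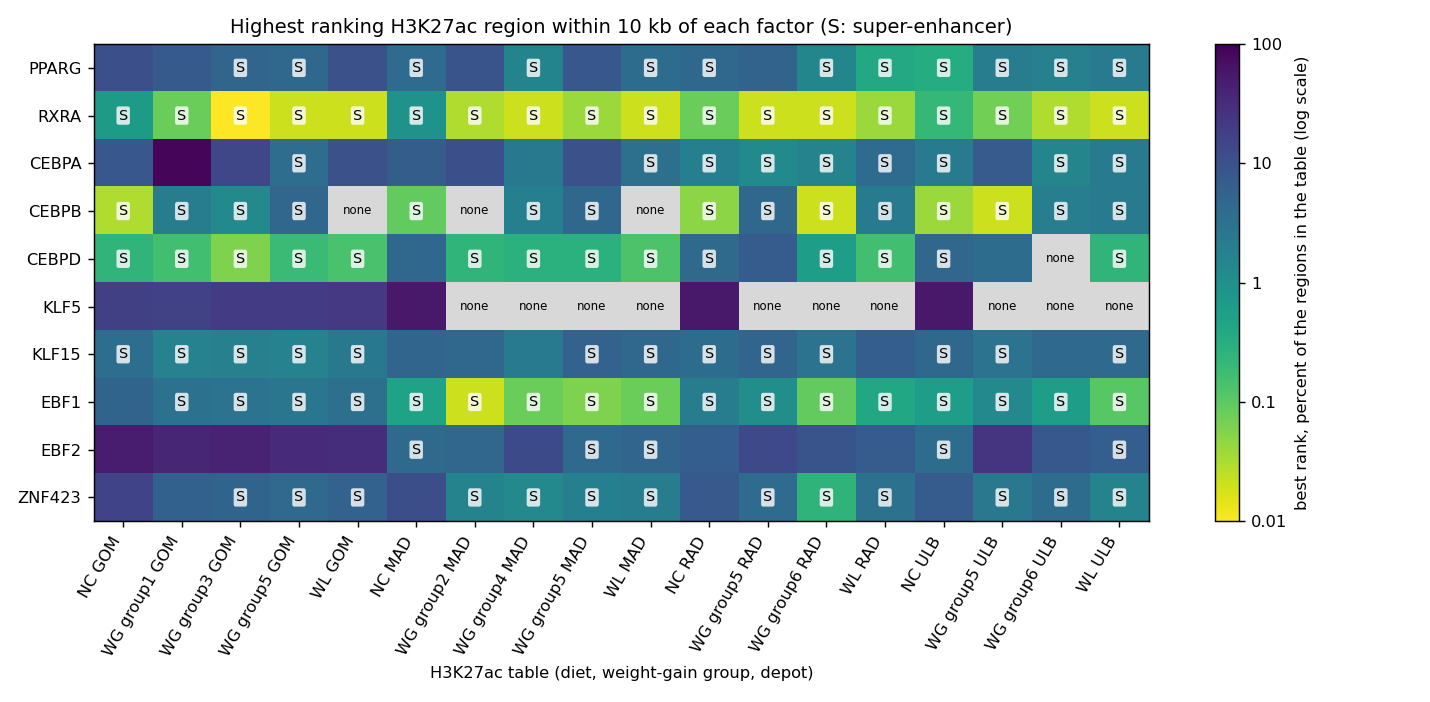
Rank of the best H3K27ac region within 10 kb of each factor (rows) in each of the 18 lists (columns), as percent of the regions in the list, with S for a super-enhancer and blank cells for no region. KLF5 has regions in the GOM lists and in 3 NC lists alone, EBF2 ranks worst in GOM, and RXRA has a super-enhancer in every list.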

How the data were processed

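RNA-seq libraries of the 4 adipose tissues were quantified by the authors with kallisto 0.43.0 (per the labels), and the deposited tables hold estimated counts and TPM per gene for 236 libraries. For the A-B index the authors deposited a compartment score per 20-kb bin for 240 Hi-C samples. For H3K27ac they mapped reads with BWA 0.7.15, removed duplicates with SAMtools 1.3.1, called peaks with SICER on pooled reads, and deposited stitched regions with their ROSE signal over input and rank. The paper states that ROSE was set to exclude promoters. In each of the 4 series tables, 9 columns of per-sample values were not used, and other deposited comparisons were not used here.

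Groups followed the labels. The estimated counts were rounded to whole numbers, and genes above 0.5 TPM in at least 80% of a group's libraries (13346 to 14440 PCGs) were tested in edgeR 4.0.16 (R 4.3.3) with TMM scaling, fitting only the groups compared. DESeq2 1.42.0 was an alternative. The index was tested with limma 3.58.1. Symbols came from a table of gene names (14821 of 21280 PCGs matched) and coordinates from the RefSeq annotation of Sscrofa11.1. The 18 autosomes of the index table ended within 1 bin of that build's lengths. All scripts for counts and index were tested on simulated data.

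All 10 factors are named. Beside each, the 3 PCGs nearest in pattern may be named, and from each gene list at most the 4 with the highest mean TPM. Members and lists were chosen with earlier results of these data known. The paper states that the 4 tissues were collected from each pig, but nothing in the labels says that a replicate number marks a pig. The main depot comparisons of expression and index therefore had no term for the animal. Numbers were treated as pairing libraries where every same-numbered pair's deviations correlated above 0.1, which held for NC GOM and ULB (4 pairs), WG MAD and ULB (30 pairs), WG RAD and ULB (33 pairs) and WL MAD and RAD (10 pairs) in expression and for no pair of depots in the index. In WG, 42 of 45 numbers with libraries of at least 2 depots lay on 1 side of the mitochondrial split in every depot. The part of that split in the pairing was not tested. P-values measure the spread between these samples. The sets by mitochondrial share, the interaction fit with a block and the fit without WG GOM replicate 35 were added after the data had been seen.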

Additional observations from a re-analysis of the deposited data

Results flagged for a closer look

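In all, 3 values stood apart from their group by Dixon's test, of 120 groups of 4 to 10 samples tested, where chance gives about 1 in 20. PPARG in NC GOM replicate 5 was 75.0 TPM, below the other 8 libraries at 138 to 216 TPM. The A-B index of WL GOM replicate 10 was the lowest of its group at the CEBPA start, 1.6 against 2.78 to 4.01 in the other 9 samples, and at the ZNF423 start, 0.686 against 1.29 to 1.95.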

How the results depend on the processing

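The count of calls between depots stayed within 1.5 times its value (31) with RLE size factors, no TPM filter, all 12 groups in 1 fit, DESeq2 and a term for the share of TPM on PCGs. It was 19 in libraries with at least 90% of TPM on PCGs and 55 without the fold threshold. From NC to WG the 6 calls became 1 in those libraries, 10 with the PCG share term, 1 at a mitochondrial share of at least 10%, 0 with that share as a term, and 12 without the fold threshold. From WG to WL the 6 became 2 in libraries with at least 90% on PCGs, and from NC to WL the 19 became 7 there, 3 below 10% mitochondrial share (12 in the same comparisons over all libraries) and 3 with that term. ZNF423 from NC to WL in MAD reversed to 0.11 and 0.13 in the last 2 fits, and KLF5 in RAD to 0.16 and 0.16. The cause was not tested.

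With the PCG share term, CEBPA and EBF2 from GOM to MAD and KLF5 from MAD to RAD in NC, PPARG in GOM and ZNF423 in MAD from WG to WL, and KLF5 in MAD from NC to WL were no longer called. Leaving out 1 NC ULB library at a time gave 31 to 36 expression calls between depots, 6 from NC to WG, 18 to 20 from NC to WL and 0 to 3 interactions, and 22 to 24, 0 to 1 and 8 to 10 index calls between depots, from NC to WG and from NC to WL. Index calls between depots were 40 with a threshold of 0.5 and 54 with none. From NC to WG the index gave 3 with quantile normalization, 3 above 0.5 and 7 with no threshold, from WG to WL 0, 7 and 9, and from NC to WL 5 of 10 with quantile normalization, of which 3 were among the main calls.

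With the replicate number as a block, 9 interactions passed in place of 0, 37 expression calls were made between depots, 29 of them among the 31, and in the index 19, all among the 23. Where the numbers paired the libraries, the block changed no depot call other than the 2 given in the report. Where they did not, it lost EBF2 from RAD to ULB in NC (-0.72). No paired analysis was possible for the H3K27ac lists because they come from no test. Regions near a factor numbered 165 at 0 kb and 170 at 50 kb. KLF5 was under 5 TPM in RAD, and the effect of depth was not tested for any factor.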

Other observations

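Inhibitors of adipogenesis were followed as a list of 17. Among libraries below 10% mitochondrial share, from WG to WL 6 of 14 tested rose in ULB and 1 of 14 in RAD, while GOM and MAD each had 5 of 15, and none fell, where 4.53%, 8.31%, 2.28% and 6.51% of all PCGs rose and 3.85%, 5.31%, 3.17% and 6.77% fell in GOM, MAD, RAD and ULB, with medians in the same order of 0.39, 0.30, 0.33 and 0.47 on the log2 scale (-0.01, 0.04, 0.01 and 0.02 over all PCGs). KLF2, a Krüppel-like factor that represses PPARG, rose in MAD by 0.66 and in ULB by 0.67, and DDIT3, which encodes a C/EBP relative that blocks C/EBP binding, rose in ULB by 0.73. Over all libraries 0, 0, 1 and 1 of the list rose (2.55%, 8.26%, 2.24% and 3.22% of all PCGs) and 0, 2, 2 and 2 fell (2.71%, 9.17%, 4.13% and 4.90%).

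Of 14 other factors that promote adipogenesis, KLF9 fell from WG to WL in all 4 depots, by 0.90, 0.82, 0.67 and 1.12 over all libraries and by 0.97, 0.93, 0.74 and 1.25 below 10%. NFIA was lower in WL than in NC in all 4 (-1.43, -1.50, -1.40 and -0.84), and was 0.01, 0.16 and 0.34 in MAD, RAD and ULB below 10%, none called. Over the 12 diet comparisons of all libraries, which share groups, 7.39% of all PCG tests were called higher and 9.81% lower. Of 72 tests of immediate early genes, 24 were higher and 3 lower. Of 6 tested per depot, 1, 2, 5 and 0 rose from NC to WG in GOM, MAD, RAD and ULB (12.2%, 5.38%, 7.10% and 0.507% of all PCGs) and 3, 3, 5 and 1 from NC to WL (15.4%, 15.2%, 10.2% and 5.39%). Glucocorticoid-responsive genes were higher in 10 and lower in 15 of 72 tests. Of 13 coregulators tested, 1 rose and 5 fell from NC to WG in GOM (12.2% and 14.5% of all PCGs; median -0.63), and 0 and 1 within libraries of at least 10% (3.57% and 9.21%; median 0.04), with EP300, a histone acetyltransferase, at -0.75 and 0.04.

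The genes whose 12 group means were most like those of PPARG (Pearson r of log2 TPM + 1 over the means, a description) were PCDH9 and VWA8 (0.969) and NHSL1 (0.965). For KLF5 they were PTPN3 (0.982), MYO1D (0.969) and ZDHHC1 (0.968), for CEBPA MICOS13 (0.985), LRP11 (0.98) and ZNHIT1 (0.978), and for KLF15 the likeness was lowest, at 0.877 for STN1. With a pseudocount of 0.1, 26 of the 30 genes nearest to the 10 factors were the same.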
